A study of Mus musculus with 23 samples.

Results

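KRAB zinc finger genes lie in clusters on several mouse chromosomes, and the CpG regions of 3 such clusters were examined for differences between the strains C57BL/6J (B6) and DBA/2J (D2) and for effects of corticosterone and a nerve agent surrogate. The members were chosen by position alone, as all 150 bp windows that start at 175.0 to 178.1 Mb of chromosome 2, 145.0 to 147.9 Mb of chromosome 4, or 65.0 to 68.6 Mb of chromosome 13 (GRCm38). There were 1865 such windows among the 210191 of the series, with 168 on chromosome 2, 852 on chromosome 4 and 845 on chromosome 13. The other 193812 autosomal windows served as the comparison. Windows were unevenly dense, at 54.2 per Mb in the chromosome 2 cluster, 294 per Mb in the chromosome 4 cluster and 235 per Mb in the chromosome 13 cluster.

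KRAB zinc finger proteins are repressors of transcription. Their arrays of C2H2 zinc fingers bind DNA, often within transposable elements, and the KRAB domain recruits TRIM28, which brings histone H3 lysine 9 methylation and, in early development, DNA methylation to the bound sites. The genes multiply by tandem duplication, so a cluster holds many near copies and its content varies between species and between mouse strains. Gene annotation (GENCODE M21) fitted the name of the clusters. At least 3 zinc fingers were found in the protein of 36 of 45 protein-coding genes of the chromosome 2 cluster, 19 of 28 of the chromosome 4 cluster and 31 of 51 of the chromosome 13 cluster. A stretch of the KRAB domain was found in 35, 19 and 29 of these genes.

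MBD-seq was used on the prefrontal cortex of 23 mice, 11 B6 and 12 D2, of which 11 were females and 12 were males. In this assay the MBD2 protein captures sheared DNA through methylated CpGs, and the reads that fall in a window rise with its methylation and also with the number of its CpGs and of its copies in the genome. There were 5 B6 control mice (145 days of age), 6 B6 CORT + DFP mice (145 to 226 days), 6 D2 control mice (147 to 196 days) and 6 D2 CORT + DFP mice (147 to 196 days). The CORT + DFP mice drank corticosterone (20 mg%) for 7 days and were then injected with 4 mg per kg diisopropyl fluorophosphate (DFP), a surrogate of sarin, followed by corticosterone every other week for 12 weeks. All 4 conditions are inbred mice, and the control mice had neither agent. The question was whether methylation differs with treatment, and whether it does so differently in the 2 strains.

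The values were log2 RPKM (reads scaled to the length of the window and the size of the library), so a difference of 1 is a 2-fold change of signal, and CF is the number of CpGs in a window. Whole reads could be recovered from the values, with 9776537 to 18428398 per mouse in all windows and a median of 41 in a cluster window, where counting error by itself amounts to an SD of 0.23 in log2 units. A window without reads has a value of -0.03 because of the small count that was added before the logarithm. The X chromosome stood 0.06 to 0.32 above the autosomes in females and -0.69 to -0.36 in males, as the labels of sex require. By the first part of the sample names, the mice fall into 3 sets, of which set 2 holds B6 mice and set 3 holds D2 mice, and set 1 holds both strains, although its B6 mice were all CORT + DFP. Among control mice, set and strain cannot be told apart. The library labelled B6 control replicate 1 had the fewest reads and stood apart in some values.

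The following 5 stretches of sequence show what the windows are made of, and they were chosen after the values were seen. Gm14403 and Gm14412 are zinc finger genes of the chromosome 2 cluster of which one was called lower in D2 and the other was not. Gm13148 and Gm13223 are processed pseudogenes of the chromosome 4 cluster that share 93.7% of the 741 positions where both have a base in a global alignment and differed between the strains in opposite directions. Cbx3-ps2 is a processed pseudogene in the chromosome 13 cluster, named for Cbx3, the gene of a heterochromatin protein that takes part in KRAB repression, and it was called higher in D2. Each stretch is 1 or 2 neighbouring windows as the reference strain (B6) has them, read from the exons of GENCODE M21 (GRCm38) and printed 5′ to 3′ on the strand of the gene, with the CpGs in capitals. They lie at chr2:177508651-177508950 (Gm14403, plus strand, 8 CpGs, coding exon), chr2:177314701-177315000 (Gm14412, minus strand, 3 CpGs, coding exon), chr4:147746251-147746550 (Gm13148, minus strand, 14 CpGs), chr4:145455751-145456050 (Gm13223, plus strand, 8 CpGs) and chr13:65559451-65559600 (Cbx3-ps2, plus strand, 6 CpGs).
Gm14403: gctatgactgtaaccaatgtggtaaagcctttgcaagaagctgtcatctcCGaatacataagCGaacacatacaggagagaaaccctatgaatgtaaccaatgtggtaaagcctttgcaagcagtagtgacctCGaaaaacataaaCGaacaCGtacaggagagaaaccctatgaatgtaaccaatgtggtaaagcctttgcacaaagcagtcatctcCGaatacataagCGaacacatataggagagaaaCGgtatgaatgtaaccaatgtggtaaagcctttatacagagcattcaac
Gm14412: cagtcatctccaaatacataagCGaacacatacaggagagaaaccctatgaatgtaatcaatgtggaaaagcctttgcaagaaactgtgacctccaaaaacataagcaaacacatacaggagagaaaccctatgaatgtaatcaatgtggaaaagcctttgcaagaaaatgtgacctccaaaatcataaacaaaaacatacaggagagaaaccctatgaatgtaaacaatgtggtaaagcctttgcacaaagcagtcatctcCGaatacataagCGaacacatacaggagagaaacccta
Gm13148: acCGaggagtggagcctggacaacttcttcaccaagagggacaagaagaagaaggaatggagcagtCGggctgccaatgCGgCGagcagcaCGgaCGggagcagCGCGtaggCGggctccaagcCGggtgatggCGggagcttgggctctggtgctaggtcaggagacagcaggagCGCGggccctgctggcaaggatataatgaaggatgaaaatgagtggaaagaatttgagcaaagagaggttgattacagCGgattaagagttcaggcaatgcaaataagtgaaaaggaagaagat
Gm13223: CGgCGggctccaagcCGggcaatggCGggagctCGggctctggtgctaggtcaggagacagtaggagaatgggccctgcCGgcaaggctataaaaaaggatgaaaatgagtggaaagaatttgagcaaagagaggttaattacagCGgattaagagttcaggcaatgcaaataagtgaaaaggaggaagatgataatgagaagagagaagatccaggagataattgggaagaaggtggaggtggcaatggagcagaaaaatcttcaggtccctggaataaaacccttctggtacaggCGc
Cbx3-ps2: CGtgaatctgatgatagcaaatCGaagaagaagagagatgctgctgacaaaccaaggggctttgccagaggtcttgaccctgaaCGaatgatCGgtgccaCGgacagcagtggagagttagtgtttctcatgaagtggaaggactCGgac

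The 9 letters GGAGAGAAA, part of the linker that joins neighbouring zinc fingers, stand 3 times in the Gm14403 stretch and 4 times in the Gm14412 stretch on the strand of the gene. Searched on both strands of the windows that lie in exons, they were found in 4 of 17 windows of the chromosome 2 cluster, in 0 of 67 on chromosome 4 and in 0 of 30 on chromosome 13. The share among the other windows in exons was 0.416%. The 4 windows are those printed above, and they are the only windows of that cluster in coding exons of zinc finger genes. On chromosomes 4 and 13 only 2 and 3 windows lay in such exons. The counts are thus no survey of the clusters. The coding sequences of Gm14403 and Gm14412 (1206 and 1578 bases) were identical at 94.3% of the 1202 positions where both have a base in a global alignment.

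The strains differed in the majority of the windows of the chromosome 4 and chromosome 13 clusters, mostly lower in D2 on chromosome 4 and in both directions on chromosome 13. In the chromosome 4 cluster, 559 of 852 windows (65.6%) were lower in D2 than in B6 control mice and 96 (11.3%) were higher. In the chromosome 13 cluster, 305 of 845 (36.1%) were lower and 381 (45.1%) were higher. In the chromosome 2 cluster, 30 of 168 (17.9%) were lower and 13 (7.74%) were higher. With set in place of age in the fit, the higher windows numbered 5 on chromosome 2 and 57 on chromosome 4, and where at least 1 read was required in every mouse, the lower windows on chromosome 2 numbered 19. Over the 3 clusters 894 windows were lower and 490 were higher, where the background over all windows was 14.9% lower and 10.4% higher. Calls were made at an adjusted p under 0.05 from a regression per window with strain, treatment and the interaction of both as terms beside age and sex, and with Benjamini-Hochberg adjustment over all windows. Neighbouring windows share DNA fragments and, often, a copied sequence, so they are not independent members.

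Windows elsewhere on the autosomes, weighted to the same CpG numbers, were lower in D2 in 15.9%, 14.3% and 14.4% and higher in 9.96%, 11.5% and 10.8% for the chromosome 2, 4 and 13 clusters in that order. The chromosome 2 cluster was thus near this level in both directions, the chromosome 4 cluster above it for lower windows, and the chromosome 13 cluster above it in both directions. The median strain difference (D2 minus B6 control mice) was -0.07 in the chromosome 2 cluster, -0.96 in the chromosome 4 cluster and 0.24 in the chromosome 13 cluster, and -0.00 in the other autosomal windows. From the lower to the upper quartile the difference ran from -1.97 to -0.15 on chromosome 4 and from -1.25 to 1.31 on chromosome 13, against -0.21 to 0.19 in the other autosomal windows. A difference below -1 was seen in 27, 416 and 233 windows of the 3 clusters (16.1%, 48.8% and 27.6%, against 8.97% of the other autosomal windows), and one above 1 in 0, 47 and 282 windows (0%, 5.52% and 33.4%, against 1.52%). The residual SD of a window was 1.12, 1.24 and 1.22 times the SD from counting in the 3 clusters at the median, and 1.10 times elsewhere.

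**Figure D1:**
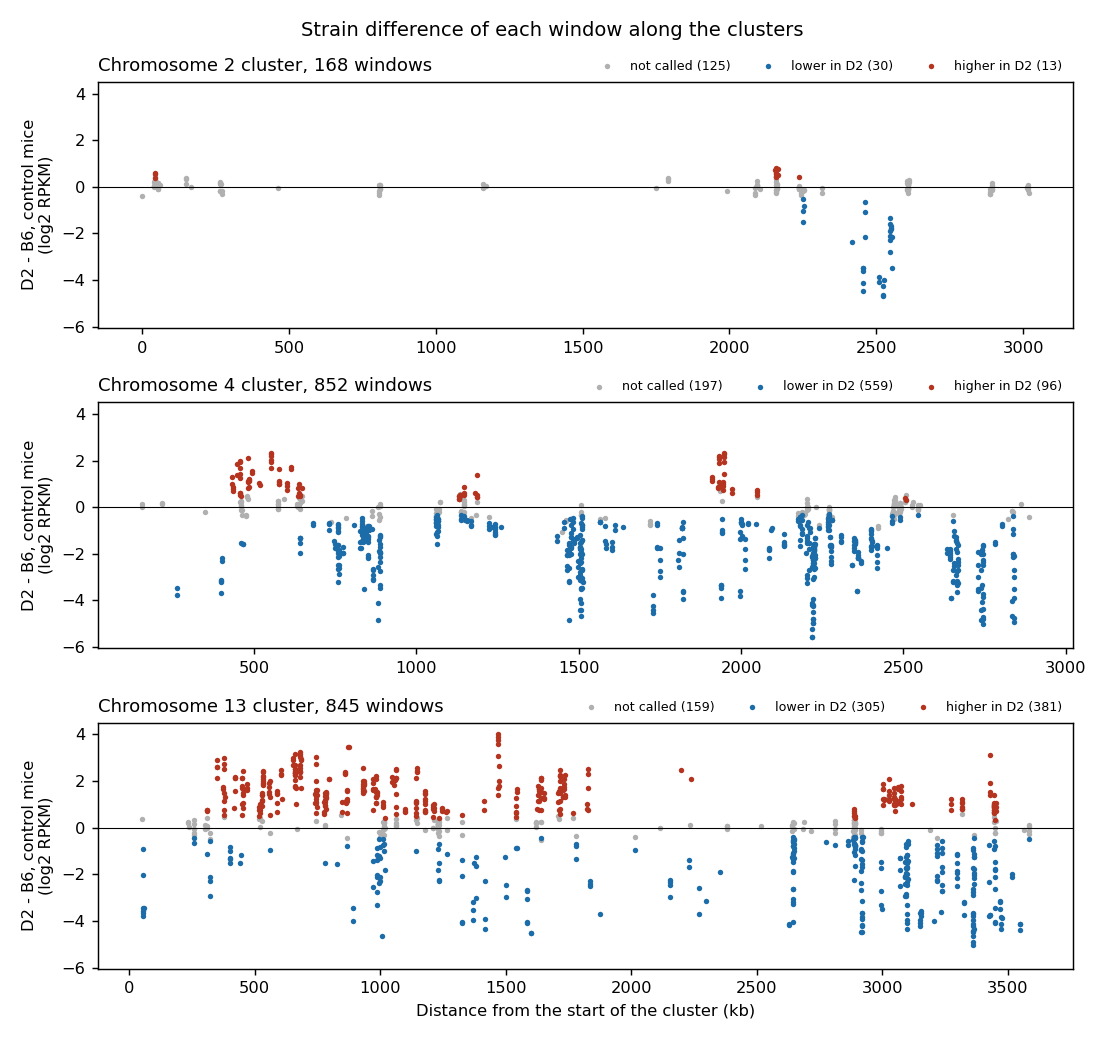
The strain difference (D2 minus B6 control mice, log2 RPKM) of each window is plotted against its distance from the start of the cluster in kb, in grey where not called, blue where called lower in D2 and red where called higher. The chromosome 2 cluster has 1 block of lower windows near its far end, the chromosome 4 cluster is lower along most of its length with 96 higher windows in a few groups, and the chromosome 13 cluster is mainly higher in its first part and mainly lower in its last.

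**Figure D2:**
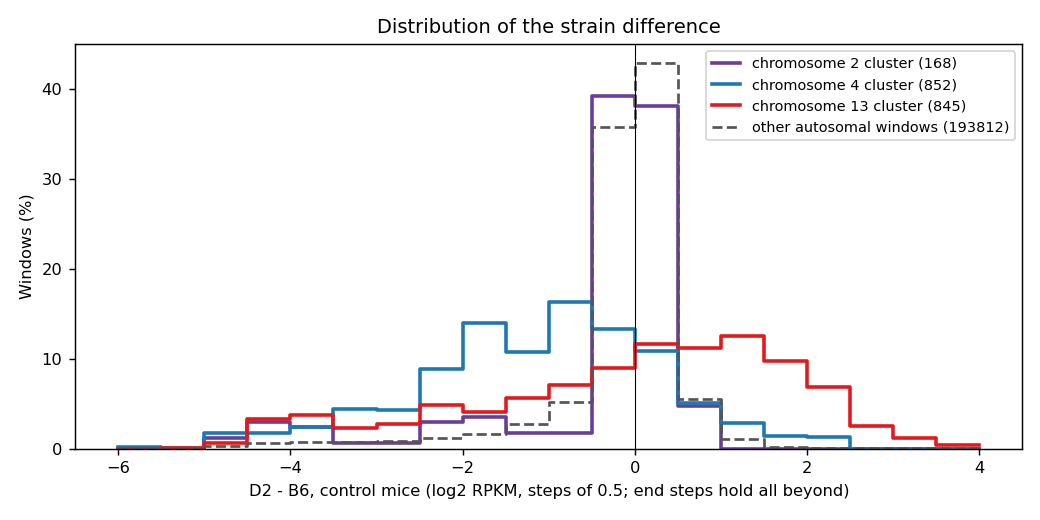
The share of windows (%) is plotted against the strain difference in steps of 0.5 log2 RPKM for each cluster and for the other autosomal windows. The chromosome 2 cluster follows the other autosomal windows with a small second group below -1, the chromosome 4 cluster is shifted below 0, and the chromosome 13 cluster is spread to both sides.

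Windows without reads, or nearly so, were found in D2 and, with 1 exception, not in B6. No read fell in any D2 mouse in 4, 2 and 6 windows of the chromosome 2, 4 and 13 clusters, and there were 0 windows without reads in B6. A mean of 3 reads or fewer in D2 with more in B6 was found in 11, 45 and 74 windows, and the opposite in 0, 0 and 1. The same asymmetry was seen in the 193812 other autosomal windows. There 430 windows had no read in any D2 mouse and 0 had none in B6. A mean of 3 reads or fewer in D2 alone was found in 3862 of them, and in B6 alone in 84. The reads were aligned to the B6 reference genome, so that a lower signal in D2 from less methylation, from a deletion or from reads of a diverged sequence that fail to align cannot be told apart. The same holds for a higher signal in D2 from more methylation or from more copies.

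The level of a cluster in a mouse was taken as the median over its windows of the log2 RPKM minus the median of the other autosomal windows with the same CF in that mouse. For chromosome 4 it was 0.47, 0.44, 0.44, 0.47 and 0.50 in the 5 B6 control mice, and from -0.41 to -0.26 (median -0.33) in the D2 control mice. The B6 mice were therefore above the genome at equal CpG number and the D2 mice below, with no overlap. For chromosome 13 the B6 control mice were at -0.16, -0.18, -0.18, -0.14 and -0.16 and the D2 control mice at 0.02 to 0.18 (median 0.11), again with no overlap and in the other direction. For chromosome 2 the B6 control mice were at -0.05, 0.09, 0.08, 0.07 and 0.05 and the D2 control mice at -0.10 to 0.09 (median -0.02), and the strains overlapped. Without B6 control replicate 1, the lowest of its group, the mean of the B6 control mice rose from 0.05 to 0.07 on chromosome 2. With means in place of medians the D2 level on chromosome 13 was -0.24 and the B6 level -0.31, both below 0. The control mice then overlapped, at -0.34 to -0.27 in B6 and -0.29 to -0.17 in D2. In windows of protein-coding gene bodies alone the order of the strains on chromosome 13 turned round, with means of -0.017 in B6 and -0.26 in D2 control mice.

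The CORT + DFP mice of each strain overlapped the control mice of that strain in all 3 clusters when the sets were pooled. Their means were 0.45 ± 0.02 in B6 and -0.40 ± 0.07 in D2 for chromosome 4, -0.16 ± 0.04 and 0.06 ± 0.07 for chromosome 13, and 0.06 ± 0.09 and -0.04 ± 0.10 for chromosome 2 (SD, n = 6 in each group). In set 1, where mice of both strains had CORT + DFP, the means were 0.46 in the 3 B6 and -0.46 in the 2 D2 mice for chromosome 4, and -0.18 and 0.08 for chromosome 13. Within set 1, however, the 2 D2 CORT + DFP mice lay below the 3 D2 control mice in each cluster. They were at -0.47 and -0.44 against -0.41 to -0.26 for chromosome 4, at 0.07 and 0.08 against 0.09 to 0.18 for chromosome 13, and at -0.20 and -0.09 against -0.08 to 0 for chromosome 2. In set 3 the 4 D2 CORT + DFP mice overlapped the 3 D2 control mice in each cluster, and in set 2 the B6 mice overlapped likewise. An exact test of 2 against 3 mice cannot reach a p of 0.05. As a share of all reads, the windows of the chromosome 4 cluster took 0.436% ± 0.018 in B6 control mice (n = 5) and 0.242% ± 0.022 in D2 control mice (n = 6). The chromosome 13 cluster took 0.241% ± 0.010 and 0.324% ± 0.026, and the chromosome 2 cluster 0.0583% ± 0.0045 and 0.0510% ± 0.0053. The shares of the strains did not overlap for chromosomes 4 and 13.

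**Figure D3:**
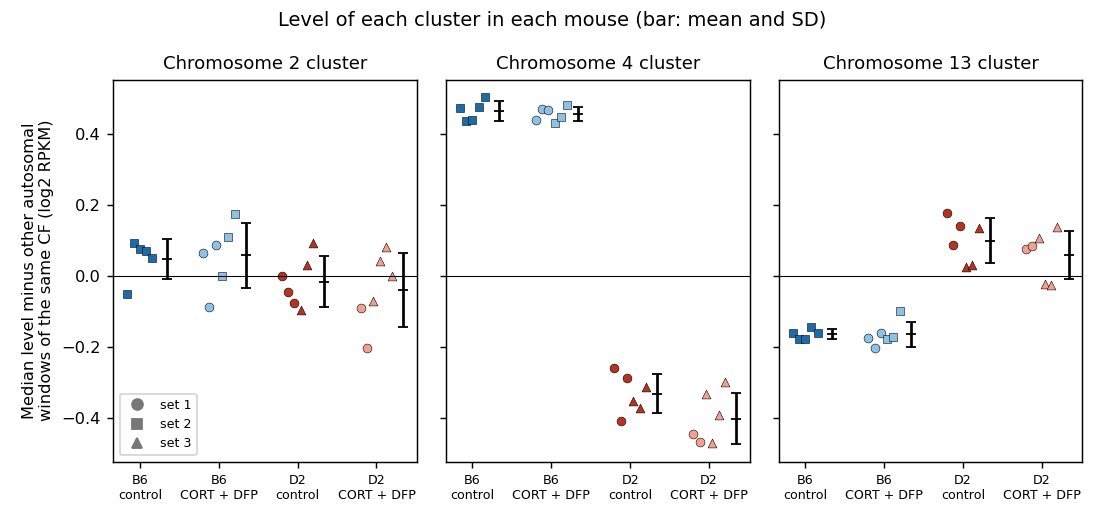
Each point is a mouse, with its level of a cluster (median log2 RPKM minus that of other autosomal windows of the same CF) on the y axis, by condition, with the set as the shape of the point and the mean and SD as bars. On chromosome 4 the B6 mice lie near 0.46 and the D2 mice below -0.25, on chromosome 13 the D2 control mice lie above every B6 mouse, and on chromosome 2 the conditions overlap.

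The direction of the strain difference on chromosome 13 went with CpG number. Windows of this cluster with 1 to 2 CpGs were higher in D2 in 77.7% and lower in 9.09% of 121, with a median difference of 1.51. Windows with 9 or more CpGs were higher in 28.0% and lower in 60.6% of 132, with a median of -0.86. Other autosomal windows ran the same way but far less, with 18.6% higher and 9.82% lower at 1 to 2 CpGs and 10.8% higher and 22.6% lower at 9 or more. In the B6 control mice the median level of the chromosome 13 windows rose from 3.32 at 1 to 2 CpGs to 4.67 at 9 or more (4.23 and 4.75 in the other autosomal windows). In the D2 control mice it fell from 4.73 to 3.87, opposite to the other autosomal windows of these mice (4.34 and 4.64). In the chromosome 4 cluster, by contrast, windows lower in D2 were the majority in every class of CpG number, with shares from 59.5% at 1 to 2 CpGs to 77.6% at 9 or more.

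**Figure D4:**
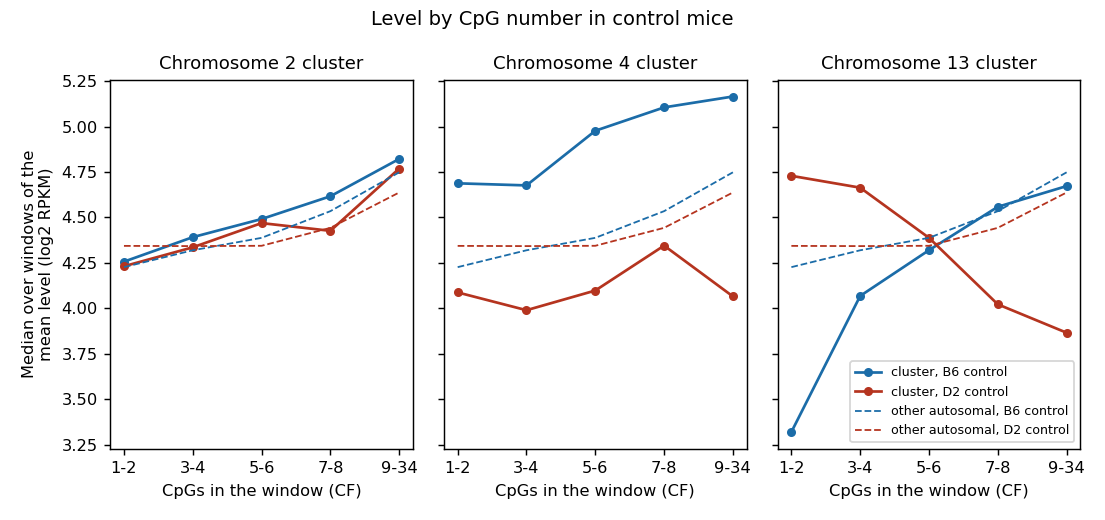
The median log2 RPKM of the windows in B6 (blue) and D2 (red) control mice is plotted against the number of CpGs for each cluster (solid) and for the other autosomal windows (dashed). The lines of the chromosome 13 cluster cross at 5 to 6 CpGs, with B6 at 3.32 and D2 at 4.73 for the fewest CpGs, whereas the lines of chromosome 4 stay apart and those of chromosome 2 stay together.

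Position and CpG number both went with direction on chromosome 13. Divided at 67.0 Mb, a limit set after the values were seen, the first part had 91 windows lower and 306 higher in D2 of 487, with a median difference of 0.92. The second part had 214 lower and 75 higher of 358, with a median of -0.79. Within the first part, 74 of 83 windows with 1 to 2 CpGs were higher in D2, and within the second part 53 of 62 windows with 9 or more CpGs were lower. Windows with 1 to 2 CpGs in the second part were still more often higher than lower, with 20 higher and 9 lower of 38.

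Most of the windows of the chromosome 13 cluster did not lie among its zinc finger genes. Between chr13:67038596-67827002, a span of 0.788 Mb, 27 of the 31 zinc finger genes of the cluster were found, but only 61 of its 845 windows. Of these 61, 40 were lower in D2 and 2 were higher, with a median difference of -0.80. In 200 kb stretches of this cluster without the start of a zinc finger gene there were 495 windows, of which 168 were lower and 285 higher in D2. In the stretches with such a start there were 350, of which 137 were lower and 96 higher. The name of the cluster thus fits its genes more than the windows measured in it. On chromosome 4, 808 of 852 windows lay in stretches with the start of a zinc finger gene, and on chromosome 2, 167 of 168.

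On chromosome 2 the strain difference was concentrated in a single block. All 26 windows of the 200 kb stretch from 177.4 to 177.6 Mb were lower in D2, with a median difference of -2.58 and median levels of 4.48 in B6 and 1.87 in D2 control mice. This gave the stretch rank 1 by share of lower windows among 3522 autosomal stretches of at least 20 windows. Any other stretch with all of its windows lower would share that rank. The block ran over 138 kb (chr2:177415951-177553500) and included Gm14403, where both windows were lower in D2. In its window at chr2:177508651-177508800, in the zinc finger coding exon printed above, the B6 control mice were at 3.84, 4.40, 3.98, 3.49 and 3.98 (19 to 47 reads). The D2 control mice were at -0.03 to 0.74 (median -0.03), with at most 1 read in a mouse. The groups did not overlap, and the difference was -3.85 ± 0.21 (SE, adjusted p = 1.03e-10 by the regression). The neighbouring window, at chr2:177508801-177508950, had a difference of -4.10 ± 0.16, with 19 to 52 reads in the B6 and 0 in the D2 control mice. The size of both differences depends on the small count added before the logarithm. The SE and p also take in D2 values that hardly vary because they lie at or near -0.03.

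The paralog Gm14412, upstream on the same chromosome, was measured in both strains. Its window at chr2:177314701-177314850 was at 5.12, 3.96, 4.35, 4.10 and 4.65 in B6 control mice and at 3.42 to 4.99 (median 4.22) in D2 control mice. The groups overlapped, with a difference of -0.29 ± 0.51 (adjusted p = 0.77 by the regression). The window beside it had a difference of -0.05 ± 0.62, and both windows varied widely between the mice of a condition, from 1.81 to 4.86 in B6 and 1.83 to 4.93 in D2 for the second. The highest of the B6 control mice in both windows was replicate 1, and without it the differences were -0.06 ± 0.55 and 0.25 ± 0.66, so that the second changed sign.

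Outside this block the chromosome 2 cluster had 4 lower and 13 higher windows. The highest in D2 with at least 10 reads in each strain lay between genes at chr2:177156751-177156900, 49521 bp from the start of Gm14410. It was at 4.75, 4.43, 4.39, 4.25 and 4.13 in B6 control mice and 4.95 to 5.36 (median 5.24) in D2 control mice, a difference of 0.82 ± 0.16 (adjusted p = 0.000524 by the regression). The window at chr2:177163651-177163800 had a difference of 0.74 ± 0.17. The largest falls of the cluster with at least 10 reads in each strain lay within the block. They were beside each other, the nearer 29660 bp from the start of Gm14406. At chr2:177548401-177548550 the B6 control mice were at 4.96, 5.14, 4.86, 4.95 and 4.62 and the D2 control mice at 2.35 to 3.49 (median 3.20), a difference of -1.76 ± 0.23. The window at chr2:177523351-177523500 was also in the block, 25136 bp from the start of Gm14403. There 31 to 61 reads were found in each B6 control mouse and 0 in every D2 mouse. Against 3 reads per D2 mouse, the signal was at least 17.1-fold lower. The highest level of the cluster lay at its other end, at chr2:175043401-175043550, with 5.03 ± 0.28 in B6 and 5.59 ± 0.20 in D2 control mice.

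On chromosome 4 the windows lower in D2 were spread over most of the cluster. From 147.6 to 147.8 Mb 66 of 67 windows were lower in D2 (median difference -2.37), from 146.4 to 146.6 Mb 87 of 96 (-1.66) and from 147.2 to 147.4 Mb 127 of 146 (-1.68), each with 0 higher. The stretch from 145.4 to 145.6 Mb went the other way, with 39 of 65 windows higher in D2 and 5 lower (median difference 0.83). From 147.4 to 147.6 Mb 27 of 86 windows were called, 25 of them lower. The longest run of neighbouring windows lower in D2 held 65 windows over 20.0 kb (chr4:147207601-147227550), with a median difference of -2.15, and the next held 60 windows (chr4:146463601-146507700). The second of these began in Zfp992 and ended in Zfp981.

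Zinc finger genes of the chromosome 4 cluster were more often measured than those of the other clusters. Windows were found in 16 of its 19 zinc finger genes, in 4 of 36 on chromosome 2 and in 12 of 31 on chromosome 13. The bodies of the zinc finger genes on chromosome 4 (start to end, introns included) held 170 windows, of which 122 were lower in D2 and 18 were higher, with a median difference of -1.46. Outside protein-coding genes 434 of 670 windows of the cluster were lower and 75 were higher (median -0.91). Windows in coding exons of zinc finger genes were few, with 4, 2 and 3 in the chromosome 2, 4 and 13 clusters. The share of windows in any protein-coding gene was 4.76%, 21.4% and 3.67%, against 41.8% of the other autosomal windows.

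The zinc finger genes with 10 or more windows were 5 and lay on chromosome 4. Zfp981 (chr4:146502027-146539395, 7 fingers) had 46 windows, of which 42 were lower in D2 and 0 higher, with a median difference of -2.02. Zfp986 (chr4:145868794-145899975) had 18 of 25 lower (-1.73), Zfp992 (chr4:146449023-146470292) 15 of 18 (-1.93) and Zfp933 (chr4:147822986-147848366) 15 of 18 (-2.11), with 0 higher in each. Zfp600 (chr4:146156824-146198755, 17 fingers) was mixed, with 5 of 13 windows lower and 5 higher. Of the zinc finger genes with fewer windows, Zfp978, Zfp979, Zfp984 and Zfp988 had all 4 of their windows lower in D2. Gm13212 went the other way, with 5 of 6 windows higher and a median difference of 0.99. Over the cluster 12 zinc finger genes had a window lower in D2, 6 had one higher and 2 had both.

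A window in an intron of Zfp981, at chr4:146507251-146507400 (7 CpGs), had the largest fall among windows of the cluster with at least 10 reads in each strain. The B6 control mice were at 5.84, 6.00, 6.00, 5.84 and 6.05 and the D2 control mice at 1.60 to 3.36 (median 2.74), a difference of -3.46 ± 0.31 (adjusted p = 8.85e-08 by the regression). The groups stood far apart, and the D2 mice had 4 to 22 reads where the B6 mice had 80 to 147. The window that came next, in a noncoding exon of Zfp992 (chr4:146469451-146469600), was at 5.48, 5.82, 5.88, 6.08 and 6.14 in B6 and 1.63 to 3.36 (median 2.77) in D2 control mice, a difference of -3.15 ± 0.26. Both windows also lie within Gm26573, a lincRNA gene that overlaps the zinc finger genes. In an intron of Zfp933 (chr4:147840451-147840600) 36 to 72 reads were found in each B6 control mouse and 0 in every D2 mouse, at least 19.1-fold lower against 3 reads per mouse. The fitted difference was -4.94 with all mice and -4.97 without B6 control replicate 1, the lowest of its group in this window. Its size depends on the count added before the logarithm. The highest level of the cluster, at chr4:146474851-146475000 (10 CpGs), was 7.03 ± 0.09 in B6 and 6.21 ± 0.18 in D2 control mice.

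The windows highest in D2 lay outside protein-coding genes. At chr4:146948551-146948700, within the lincRNA gene Gm26573 and 23276 bp from the start of Zfp989, there was 1 CpG. The B6 control mice were at 4.16, 3.55, 3.78, 3.80 and 3.88 and the D2 control mice at 5.93 to 6.30 (median 6.14), a difference of 2.34 ± 0.18 (adjusted p = 1.59e-08 by the regression). At chr4:145553101-145553250 the difference was 2.30 ± 0.19, from 3.82 ± 0.44 in B6 to 6.01 ± 0.17 in D2 control mice.

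The processed pseudogenes Gm13148 and Gm13223, printed above, moved apart. In Gm13148, at chr4:147746401-147746550, the B6 control mice were at 4.96, 5.11, 5.18, 5.35 and 5.36 (43 to 101 reads) and the D2 control mice had 0 or 1 read each. The difference was -4.99 ± 0.15 (adjusted p = 2.07e-14 by the regression), and -4.78 ± 0.19 in the window beside it. With so few D2 reads, the sizes depend on the count added before the logarithm, and the SE and p take in D2 values of little spread. In Gm13223, at chr4:145455751-145455900, the B6 control mice were at 3.91, 4.49, 4.35, 4.52 and 4.13 and the D2 control mice at 5.91 to 6.43 (median 6.18), a difference of 1.94 ± 0.14 (adjusted p = 3.47e-09). The window beside it differed by 2.00 ± 0.17. How reads were divided between such similar sequences was not tested.

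In the chromosome 13 cluster the windows higher in D2 were concentrated between 65.4 and 66.8 Mb. From 65.6 to 65.8 Mb 68 of 73 windows were higher and 1 was lower, with a median difference of 1.76, which ranks 3 among the autosomal stretches by share of higher windows. From 65.4 to 65.6 Mb 55 of 68 were higher (1.40, rank 7). The lincRNA gene Gm48166 and the transcribed pseudogene Gm48165, which overlap there, held 45 windows, 39 of them higher in D2 and 1 lower. Platr2, a lincRNA gene, had 24 of 30 windows higher and 2 lower. Toward the other end, 54 of 66 windows between 68.2 and 68.4 Mb were lower, with a median difference of -1.92. The longest runs were 30 windows higher in D2 over 101 kb (chr13:65563351-65664000) and 32 windows lower over 10.8 kb (chr13:68090551-68101350).

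At chr13:65681101-65681250 (3 CpGs), 168423 bp from the start of Gm10139, the B6 control mice were at 3.77, 3.05, 2.93, 3.01 and 3.37 (13 to 18 reads) and the D2 control mice at 6.11 to 6.81 (median 6.50, 128 to 286 reads). The difference was 3.26 ± 0.23 (adjusted p = 3.65e-09 by the regression), the highest of the cluster among windows with at least 10 reads in each strain. At chr13:65661301-65661450 it was 3.15 ± 0.24. The Cbx3-ps2 window, near the start of the same block, was at 3.53, 4.22, 4.16, 3.92 and 4.03 in B6 and 5.68 to 5.95 (median 5.80) in D2 control mice, a difference of 1.92 ± 0.14. In these windows every D2 mouse was above every B6 mouse.

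The largest falls of the cluster with at least 10 reads in each strain were in neighbouring windows between genes. At chr13:67915201-67915350 (15 CpGs), 51875 bp from the start of BC048507, the B6 control mice were at 5.57, 5.71, 5.55, 5.71 and 5.45 and the D2 control mice at 2.06 to 3.31 (median 3.10). The difference was -2.69 ± 0.27 (adjusted p = 3.11e-07 by the regression), and -2.36 ± 0.28 in the window before it. At chr13:68362651-68362800 26 to 54 reads were found in each B6 control mouse and 0 in every D2 mouse, at least 16.2-fold lower against 3 reads per mouse. The highest level of the cluster, at chr13:68444551-68444700, was 6.25 ± 0.10 in B6 and 7.19 ± 0.08 in D2 control mice.

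The zinc finger genes of chromosome 13 were sparsely covered, with at most 3 windows in a gene, and 6 of them had a window lower in D2 and 1 had a window higher. All 3 windows of 2410141K09Rik (median difference -3.91) and both windows shared by the overlapping Zfp729a and Gm49345 (-4.16) were lower in D2, as were both of Zfp458 (-3.16) and the 1 window of Zfp457 (-3.14). The 1 window of Zfp455 was higher, at 2.49. In Rslcan18, a candidate from the group of genes that regulate sex-limited liver proteins, and in Zfp369, Zfp65, Zfp738 and Zfp87, 0 windows were called. Protein-coding genes of the 3 clusters with fewer than 3 zinc fingers found held 26 windows outside the zinc finger gene bodies. Of these 6 (23.1%) were lower in D2 and 3 (11.5%) higher. A stretch of the KRAB domain was also found in some of these genes, among them Zfp993 and Gm21411 on chromosome 4. All 3 windows of Zfp993 were lower in D2, and all 3 of Gm21411 were higher. Both windows of BC048507 were lower (median difference -0.66). Of the 5 windows of Fastkd3, which acts on mitochondrial RNA, 1 was lower in D2, and 0 windows were called in Mtrr (methionine synthase reductase), Mfn2 (mitofusin, for the fusion of mitochondria), Vps13d (lipid transfer) and Tnfrsf1b (a receptor of tumour necrosis factor).

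**Figure D5:**
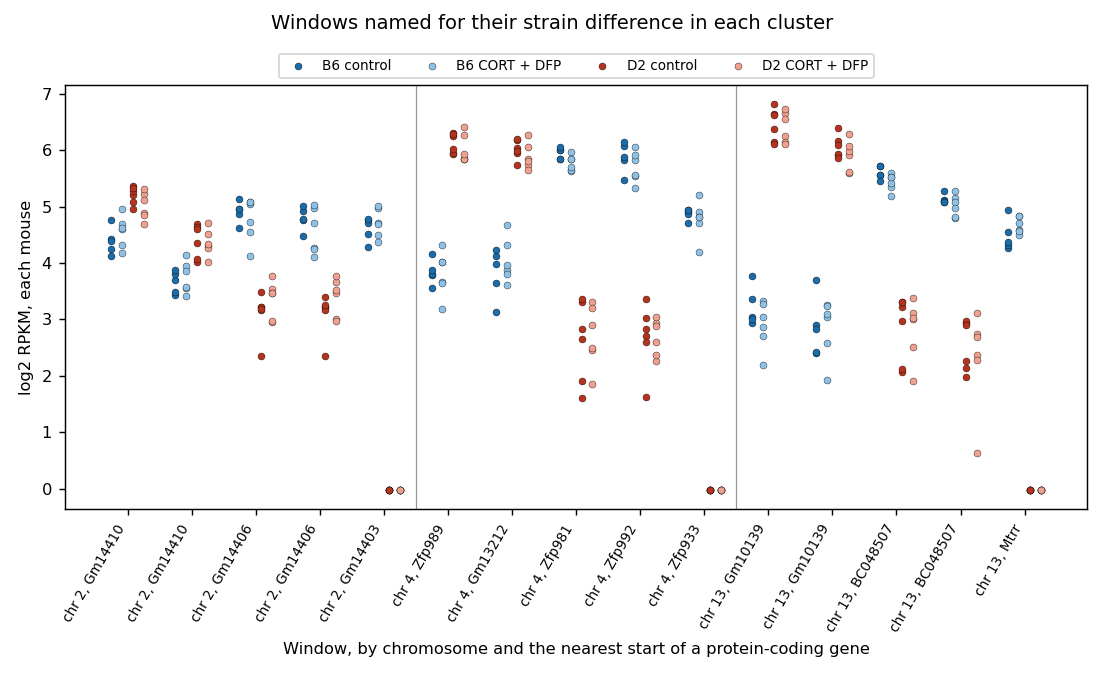
The log2 RPKM of each mouse is plotted for the 5 windows named in each cluster for their strain difference, by condition, with the nearest start of a protein-coding gene under each. The windows were chosen for control mice of the strains that do not overlap or for a lack of D2 reads, and points at -0.03 are D2 mice without reads.

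Few windows lay at the starts of genes. Within 500 bp of the start of a protein-coding gene there were 0 windows on chromosome 2, 20 on chromosome 4 and 11 on chromosome 13. On chromosome 4, 13 of the 20 were lower in D2 and 5 were higher, at 9 genes. The highest was at the start of Zfp979 (chr4:147642451-147642600, noncoding exon), with 5.91, 5.60, 5.75, 5.70 and 5.85 in B6 and 3.53 to 4.47 (median 3.90) in D2 control mice, a difference of -1.88 ± 0.18 (adjusted p = 2.4e-07 by the regression). On chromosome 13, 4 of the 11 were lower and 0 higher. The highest there, in the coding exon of Gm10775 (chr13:65259751-65259900, 10 CpGs), were not called, at 4.90 ± 0.07 in B6 and 4.81 ± 0.21 in D2 control mice. Of the promoters that RefSeq lists for the clusters (GRCm38, 300 bases that span the start), 0 of 51, 4 of 34 and 5 of 72 held a window, against 2.53% of the other autosomal promoters.

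Set against the whole genome, long blocks of strain difference were frequent in the clusters. Of 29 stretches of 200 kb with at least 20 windows in the clusters, 10 had 90% or more of their windows called, where 59 of 3522 autosomal stretches did (1.68%). At 75% or more it was 18 of 29, against 170 of 3522 (4.83%). Runs of 20 or more neighbouring windows called in the same direction numbered 116 for lower and 25 for higher on all autosomes, of which 10 and 4 lay within the clusters. The edges were not sharp. In the 1 Mb before the chromosome 4 cluster 80.5% of 159 windows were called, 124 of them lower in D2, and in the 1 Mb before the chromosome 13 cluster 61.7% of 81, of which 50 were lower. After them it was 21.0% of 143 and 38.5% of 39, and beside the chromosome 2 cluster 4.49% of 156 before and 12.2% of 41 after.

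Copied sequence was frequent in the clusters. Of the windows that could be read from exons, at least 60 of the 120 overlapping 31-base words were found in a transcript of another place in 16 of 17 on chromosome 2, 39 of 67 on chromosome 4 and 8 of 30 on chromosome 13. Together this was 55.3%, against 14.0% of the other windows in exons. In the clusters 66.7% of the 63 copied windows and 58.8% of the 51 others were called between the strains. Among the other autosomal windows in exons it was 32.0% and 6.55%. Whether copies made the strain difference was not tested, and windows outside exons were not examined in this way.

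The strain differences had mostly the same direction in the CORT + DFP mice, which are other animals than the control mice. The CORT + DFP mice took part in the fit that made the calls, through its estimate of the spread and its age and sex terms. The comparison is thus not an independent test. Of the 894 windows lower in D2 control mice 893 had the same sign in the CORT + DFP mice, and of the 490 higher windows 487 did. Nearly all windows called elsewhere on the autosomes did so too, 29227 of 29734 lower and 18526 of 19116 higher ones. B6 and D2 did not overlap in the CORT + DFP mice in 800 (89.5%) of the 894 and 389 (79.4%) of the 490 cluster windows. Elsewhere on the autosomes the shares without overlap were 76.9% and 43.7%. In the chromosome 2 cluster there was no overlap in 30 of 30 lower and 3 of 13 higher windows. Within set 1, the 3 B6 and 2 D2 CORT + DFP mice had the same sign in 891 of 894 and 487 of 490. Elsewhere on the autosomes these 5 mice had it in 28843 of 29734 and 17797 of 19116. A regression on these 5 mice alone called 1 window of the 3 clusters at an adjusted p under 0.05, and at an unadjusted p of 0.05 or less it gave 39, 523 and 530 windows on chromosomes 2, 4 and 13, with 18.8% of all windows.

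No effect of CORT + DFP passed adjustment in the clusters, nor in any of the 210191 windows of the series. In B6 mice 0 windows were called, and an unadjusted p of 0.05 or less was found in 5 (2.98%), 31 (3.64%) and 50 (5.92%) windows of the chromosome 2, 4 and 13 clusters, 86 in all, where the share of all windows was 5.86%. Without B6 control replicate 1 the 86 became 54, without the age term 53, and in the B6 mice of set 2 alone, which were of the same age, 121. These 121 were 7, 59 (6.92%) and 55 windows of the 3 clusters, where the share of all windows in that fit was 6.16%, and 0 were called after adjustment. For the fits without that replicate and without the age term, the share of all windows is not given. In D2 mice an unadjusted p of 0.05 or less was found in 6 (3.57%), 73 (8.57%) and 47 (5.56%), against 5.33% of all windows, with 0 called after adjustment. For the treatment-by-strain interaction, which tests whether the effect differs between the strains, it was 9 (5.36%), 63 (7.39%) and 56 (6.63%), against 6.82%, again with 0 called. By limma, 0 windows were called for the effect in B6 and for the interaction. An unadjusted p of 0.05 or less was found in 83 (4.45%) and 144 (7.72%), against 5.79% and 7.04% of all windows. At the threshold of 0.0001 used in the study there was 1 window of the clusters, for the effect in D2 on chromosome 13 (unadjusted p = 4.72e-05, adjusted p = 0.473 by the regression). Among all 210191 windows there were 38 for the effect in D2, 23 for that in B6 and 24 for the interaction. The study used this threshold for its treatment and interaction terms, not for a separate effect in D2.

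The windows with the smallest p for treatment in B6 did not pass adjustment. At chr2:177157951-177158100 (9 CpGs) the B6 control mice were at 4.86, 5.05, 4.73, 4.75 and 4.65 and the B6 CORT + DFP mice at 4.82 to 5.45 (median 5.12). The groups overlapped, and the fitted effect was 0.39 ± 0.10 (adjusted p = 0.756 by the regression). This window also had the smallest interaction p on chromosome 2, with an interaction of -0.49 ± 0.14 (adjusted p = 0.665). On chromosome 4 the smallest p for both was at chr4:145757101-145757250 (10 CpGs, between genes). There the B6 mice were at 4.85 ± 0.24 in control and 5.08 ± 0.19 in CORT + DFP (fitted effect 0.52 ± 0.15 with age and sex as terms, adjusted p = 0.763 by the regression), and the D2 mice at 3.59 ± 0.22 and 3.29 ± 0.44, with an interaction of -0.87 ± 0.20 (adjusted p = 0.644 by the regression). On chromosome 13 the smallest were at chr13:66180301-66180450 for treatment in B6 (from 4.03 ± 0.23 to 3.64 ± 0.28, fitted effect -0.52 ± 0.14, adjusted p = 0.759) and at chr13:68426701-68426850 for the interaction (-0.65 ± 0.17, adjusted p = 0.665), both by the regression. Without B6 control replicate 1, the lowest of its group in the latter window, the interaction there was -0.53 ± 0.15 (adjusted p = 0.916). Each is the smallest of its cluster and was chosen for that.

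Genes that act with KRAB zinc finger proteins or on DNA methylation lie outside the clusters. Of 22 such genes 15 held 155 windows in the gene body or within 1000 bp before the start. The strain difference was called in 7 windows (4.52%), all lower in D2, where 14.9% of all windows were lower and 10.4% higher, and where 9.96% and 5.83% of the other autosomal windows in protein-coding gene bodies were. The median difference was -0.02. Of these, 4 were among the 11 windows of Chd3, a helicase of the NuRD complex, and 1 each in Morc3 and Smchd1, which act in chromatin silencing, and in Tet3, which oxidizes methylated cytosine. In Trim28, the corepressor of KRAB proteins, 0 of 7 windows were called, and in Dnmt1, the maintenance DNA methyltransferase, 0 of 55. For treatment in B6, 8 of the 155 (5.16%) had an unadjusted p of 0.05 or less, close to the 5.86% of all windows, and 0 windows were called after adjustment over all windows.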

How the data were processed

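The authors aligned the reads to GRCm38 (mm10) with STAR 2.5.0a, counted them in 150 bp windows with MEDIPS and deposited log2 RPKM values made with edgeR 3.34.1, with a prior of 2 reads on average before the logarithm. HOMER was also named in the submitters' notes. The deposited values included those of 23 mice, with 0 columns unmatched to a sample. Whole reads were recovered from 100% of the values (within 0.05 of a read). Each window was fitted by least squares with strain, treatment, the interaction of both, age and sex as terms (17 residual degrees of freedom), the model of the study, with Benjamini-Hochberg adjustment over 210191 windows in Python 3.11.15 (numpy 2.4.6, pandas 2.3.3, scipy 1.17.1). The fit was tested on simulated data and set beside moderated statistics from limma 3.58.1 (R 4.3.3). In the simulation 100 of 210191 windows had a strain difference of 1 log2 unit and 100 a difference of 2, of which 48% and 93% were called. Far fewer windows were changed than were called in the data, so these shares do not carry over to the data. No treatment effect was simulated. Figures were drawn with matplotlib 3.10.9. CF equalled the CpG number in 95.8% of 28686 windows read from exons and was within 1 in all of them.

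The clusters, gene lists and rules were chosen with earlier results of these data known. Named for each cluster were the 2 windows with the largest difference in each direction (adjusted p under 0.05, control mice of the strains not overlapping, a mean of at least 10 reads in the control mice of each strain), the highest B6 window without D2 reads, those with the smallest treatment p in B6 and interaction p, the highest level, the 2 highest near gene starts, and genes with 10 or more windows. Other genes, and the printed sequences, were chosen after their values were seen. P-values of the regression set an estimate against the spread between mice of a condition that age and sex leave. For the strain difference they cannot cover differences between sets, because set and strain cannot be told apart among control mice. Intervals from counts cover counting error only. Alternatives covered the prior, filters, scaling, covariates, sets, gene bodies, the comparison windows and each mouse left out. Other limits of the clusters were not tried.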

Additional observations from a re-analysis of the deposited data

Results flagged for a closer look

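A mouse far from the others of its condition, by Dixon's ratio, was found in 14 of 156 groups of values tested, where chance gives 7.8. No explanation was tested for any of them. Of the summaries, the share of reads in the chromosome 13 cluster was 0.245% in B6 CORT + DFP replicate 3 and 0.227% to 0.233% in the others of that condition. The level of the chromosome 2 cluster was -0.050 in B6 control replicate 1 and 0.05 to 0.09 in the others.

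On chromosome 2 the flagged values were in windows where D2 had few reads. In Gm14403, D2 control replicate 1 was at 0.74 and D2 CORT + DFP replicate 4 at 0.38 at chr2:177508651-177508800, and the latter mouse was also at 0.38 in the neighbouring window, all with 1 read where the other D2 mice of the condition had 0. Near Gm14406, D2 control replicate 1, which has the fewest reads of its condition, was at 2.35 in both neighbouring windows (chr2:177548251-177548400 and chr2:177548401-177548550), with the others at 3.17 to 3.49.

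On chromosome 4, D2 CORT + DFP replicate 2 was at 5.58 in Gm13223 (chr4:145455751-145455900, others 6.00 to 6.18). At the start of Zfp979 (chr4:147642301-147642450), B6 CORT + DFP replicate 2 was at 5.90 (others 5.57 to 5.68). In Zfp933 (chr4:147840451-147840600), B6 control replicate 1 was at 4.72 (others 4.87 to 4.94). On chromosome 13, D2 CORT + DFP replicate 3 was at 4.35 at chr13:66180301-66180450 (others 4.85 to 4.89), and B6 control replicate 1 was at 3.98 at chr13:68426701-68426850 (others 4.41 to 4.46). At chr13:67915051-67915200, B6 control replicate 3 was at 5.28 (others 5.08 to 5.12) and D2 CORT + DFP replicate 1 at 0.62, with 1 read (others 2.27 to 3.12).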

How the results depend on the processing

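No strain count changed by more than 1.5 times with limma, a prior of 1 RPKM on the log2 scale, centring of each mouse or quantile normalization. No level changed by more than 1 SD with that prior. Levels were not computed with limma, centring or quantile normalization. A filter at a mean of 10 reads removed 0 windows. Windows with at least 1 read in every mouse gave 19 lower windows on chromosome 2 and levels of -0.23 in D2 on chromosome 4 and -0.19 in B6 and 0.20 in D2 on chromosome 13. A mean above 3 reads required in both strains, a filter chosen after seeing the data, gave 19, -0.25, -0.19 and 0.19. With set in place of age, 5 windows were higher in D2 on chromosome 2 and 57 on chromosome 4. In the 5 CORT + DFP mice of set 1 alone, lower and higher counts were 0 and 0 on chromosome 2, 1 and 0 on chromosome 4 and 0 and 0 on chromosome 13, and 0 of the 15 named windows were called, in a fit on fewer mice. In protein-coding gene bodies alone, with fewer windows, the counts were 2 and 0, 124 and 19, and 12 and 1, with 3 of the named windows, and the levels in B6 and D2 were -0.17 and -0.49 on chromosome 2, 0.41 and -0.61 on chromosome 4 and -0.017 and -0.26 on chromosome 13. With means in place of medians the D2 levels were -0.26, -0.50 and -0.24 and the B6 level on chromosome 13 was -0.31. The D2 level on chromosome 13 thus turned below 0 under the last 2 settings, and the cause was not tested.

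With each mouse left out in turn, windows lower in D2 numbered 30 to 32 on chromosome 2, 545 to 565 on chromosome 4 and 297 to 309 on chromosome 13, and higher ones 11 to 15, 86 to 100 and 366 to 384. All 15 named windows were called each time, and treatment and interaction gave 0 calls. Without the age term, 53 windows of the clusters had an unadjusted p of 0.05 or less for treatment in B6 and 76 for the interaction. Without B6 control replicate 1 it was 54 and 97. The share of all windows in these fits is not given, so the counts show nothing particular to the clusters. No paired analysis was possible because the replicate numbers were given in accession order and pair no mice. At 41 reads, the median of the clusters, counting gives an SD of 0.23, and the D2 values of windows with few reads are less precise.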
